A study of Mus musculus with 2 samples.

Results

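Zcwpw1, Dpep3, Slc25a31 and Brdt are germ cell genes that carried H3K9me3 at an annotated transcript start in E14TG2a.4, a line of mouse embryonic stem cells. These 4 were picked by name for their marked promoters, out of 22367 protein-coding genes of the mm9 annotation, so the values that chose them are given as a description, with no test. Regions of the mm9 lists were read within 1 kb of each GENCODE M1 transcript start, and peaks of the mm10 lists over each RefSeq gene body with 20 kb flanks. The data showed the mark over the 5′ end of Dpep3, Slc25a31 and Brdt. The marked start of Zcwpw1 was that of the short internal transcript Zcwpw1-004, and no mm9 region came within 19175 bp of the start of the full-length transcript. For Zcwpw1 the name marked promoter thus holds for the internal start alone, and not for that of the full-length transcript.

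The mark is histone H3 trimethylated at lysine 9, and ChIP-seq, which sequences the DNA bound to an antibody's target, was made on 2 biological replicates of this male 129/Ola line, each its own biosample, with 1 group and no treatment named. All cells carried the line's own genotype, and the reference sequence used here is not that of this strain. The files were peak lists, so read depth is unknown and each fold enrichment is the authors' value for a peak. The mm9 lists held 43006 regions in replicate 1 and 53405 in replicate 2, with median widths of 4000 and 3600 bp, and the narrow mm10 peaks had medians of 289 and 310 bp. The lists hold no expression, so the identity of the cells could not be read from markers. Of 8 stem cell genes such as Pou5f1 and Nanog, 0 had a region of both replicates at a promoter, and of 7 fibroblast genes 1 had, Lum, so both counts are near the 5.54% of all protein-coding genes. Esrrb, a stem cell gene, had a region in replicate 2 alone, at 3.02, and a replicated mm10 peak within 1 kb of a start.

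Germ cell genes serve meiosis and the making of eggs and sperm, and many of them, though not all, are known to be silent in most other cells. Their promoters are often held silent by DNA methylation, and in embryonic stem cells also by repressor complexes that hold E2F6 or MGA and MAX, and by H3K9 methyltransferases. H3K9me3 is a mark of silent chromatin that is known above all at repeats. Zcwpw1 encodes a reader of histone methylation that acts at meiotic recombination sites set by PRDM9. Dpep3 encodes a membrane-bound dipeptidase of the testis. Slc25a31 encodes the germ cell ADP/ATP carrier of mitochondria. Brdt encodes the testis member of the BET family of bromodomain proteins, which bind acetylated histones.

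The sequences before the starts show how the marked starts differ, and are shown for that reason. The first 4 lines are the 250 bases before a RefSeq start in GRCm38.p6, which is mm10, read 5′ to 3′ on the gene's strand, with each CACGTG in capitals. These are chr8:105979420-105979669 on the minus strand, chr3:40708621-40708870, chr5:107330944-107331193 and chr5:137787552-137787801, the last 3 on the plus strand. The fifth line is the 150 bases before the marked internal start of Zcwpw1 in mm9, chr5:138251907-138252056 on the plus strand, with each CG in capitals.
Dpep3: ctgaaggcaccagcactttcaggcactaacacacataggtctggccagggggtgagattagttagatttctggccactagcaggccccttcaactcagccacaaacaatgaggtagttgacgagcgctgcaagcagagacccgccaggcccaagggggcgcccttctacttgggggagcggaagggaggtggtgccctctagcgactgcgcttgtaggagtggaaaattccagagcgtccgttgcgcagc
Slc25a31: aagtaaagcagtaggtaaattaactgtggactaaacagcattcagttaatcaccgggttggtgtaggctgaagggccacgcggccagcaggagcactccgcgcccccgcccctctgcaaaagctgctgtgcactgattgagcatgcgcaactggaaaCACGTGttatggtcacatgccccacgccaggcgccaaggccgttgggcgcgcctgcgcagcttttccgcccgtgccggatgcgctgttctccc
Brdt: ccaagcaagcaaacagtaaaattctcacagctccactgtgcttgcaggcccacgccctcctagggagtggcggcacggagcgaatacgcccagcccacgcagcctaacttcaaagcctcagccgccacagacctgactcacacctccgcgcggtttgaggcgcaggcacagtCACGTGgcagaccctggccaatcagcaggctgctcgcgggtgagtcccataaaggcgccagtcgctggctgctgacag
Zcwpw1 (full-length start): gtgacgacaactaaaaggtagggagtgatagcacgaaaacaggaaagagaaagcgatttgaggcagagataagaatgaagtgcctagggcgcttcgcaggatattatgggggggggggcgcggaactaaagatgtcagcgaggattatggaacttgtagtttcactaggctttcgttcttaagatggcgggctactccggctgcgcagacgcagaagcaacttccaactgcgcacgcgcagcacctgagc
Zcwpw1 (internal start): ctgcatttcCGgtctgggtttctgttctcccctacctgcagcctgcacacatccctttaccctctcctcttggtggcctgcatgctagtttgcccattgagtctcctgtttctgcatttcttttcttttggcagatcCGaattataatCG

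CACGTG, the E-box letters that MAX and its partners bind, stood 93 bases before the start of Slc25a31 and 78 bases before that of Brdt. It was in no window of Dpep3 or Zcwpw1. The letters GCGGGA, the core of many E2F sites, were searched on both strands and found once, as TCCCGC beginning at base 21 after the Slc25a31 start. Windows ran from 250 bases before to 50 after a start, and the 2 motifs can overlap by 1 base, which they did not here. Of 21262 such windows of protein-coding genes, 7.84% held CACGTG and 25.8% held GCGGGA on either strand. Both RefSeq windows of Zcwpw1 were rich in CpG, with 17 and 23 CpG, against a median of 13 over all windows. Brdt had 23, Slc25a31 22 and Dpep3 12. Within 1 kb of the start in mm9, the full-length Zcwpw1 start had 55.5 CpG per kb and the marked internal start 9.99, against a median of 30.5 over protein-coding genes. The full-length start was therefore CpG-rich and unmarked, and the internal start CpG-poor and marked. The gene's other annotated starts had still fewer CpG per kb than the internal start and were also unmarked. CpG content thus did not separate the marked start of Zcwpw1 from its unmarked ones.

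In mm9, both replicates shared a region within 1 kb of a start at 5.54% of all protein-coding genes, and at the 5′ end of 3.84%. Members had to have one, so nothing is read from their count. Zcwpw1 had a shared region at 1 of its 4 annotated starts and Brdt at 3 of 4, while the single starts of Dpep3 and Slc25a31 both had one. The 3 marked starts of Brdt lay close together, from 107760178 to 107760211, under the same region.

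Zcwpw1 lies on chromosome 5 from 138229026 to 138263849 in mm9, on the plus strand. The region over its internal start had a fold enrichment of 5.23 in replicate 1 and 8.16 in replicate 2, a mean of 6.70 ± 2.07 (SD, n = 2). It was 19600 bp wide in replicate 1 and 18000 bp in replicate 2. The bases shared by both replicates touched exons 8 to 17 of the 17 exons, covered 43.8% of the body and ran past the gene's end. In this body 13926 of the shared bases were intronic and 1323 exonic.

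In mm10 the mark on Zcwpw1 resolved into a pair of strong narrow peaks in the downstream part of the gene. The authors' replicated list had a peak of 3758 bp with a fold enrichment of 19.0, from 20970 to 24727 bp after the RefSeq start, and 99.6% of that list was weaker. A second peak of 5864 bp had 16.4, from 27895 to 33758 bp. Replicate 1 had 13.004 and 15.1 at these places and replicate 2 had 13.5 and 20.4. Both replicates therefore had both peaks. By its distance from the matched start in mm9, the internal start of Zcwpw1-004 fell inside the first peak, in the replicated list and in both replicates. At the full-length start the replicated list had no peak in the promoter window, and its nearest peak began 20427 bp downstream. Replicate 1 alone had a weak peak 124 bp after this start, with a fold enrichment of 2.86, and replicate 2 had none within 19716 bp.

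The stretch between the pair of peaks was made almost wholly of high-copy sequence. It was 3.17 kb long and held no peak in either replicate. At the same distances in mm9, 16-mers with 50 or more copies in the genome started at 92.6% of its bases, against 10.3% under the first peak and 12.3% under the second. It also had 28.1 CpG per kb, against 11.97 and 6.48. The 2 builds could be set side by side here because the promoter letters of this start were found once in the mm9 locus and the start and gene end lay 34819 bp apart in both. How reads with several matches were treated is not known from these sources. Its part in the gap was not tested. The mm9 regions, which are wider, ran across this stretch without a break.

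**Figure D1:**
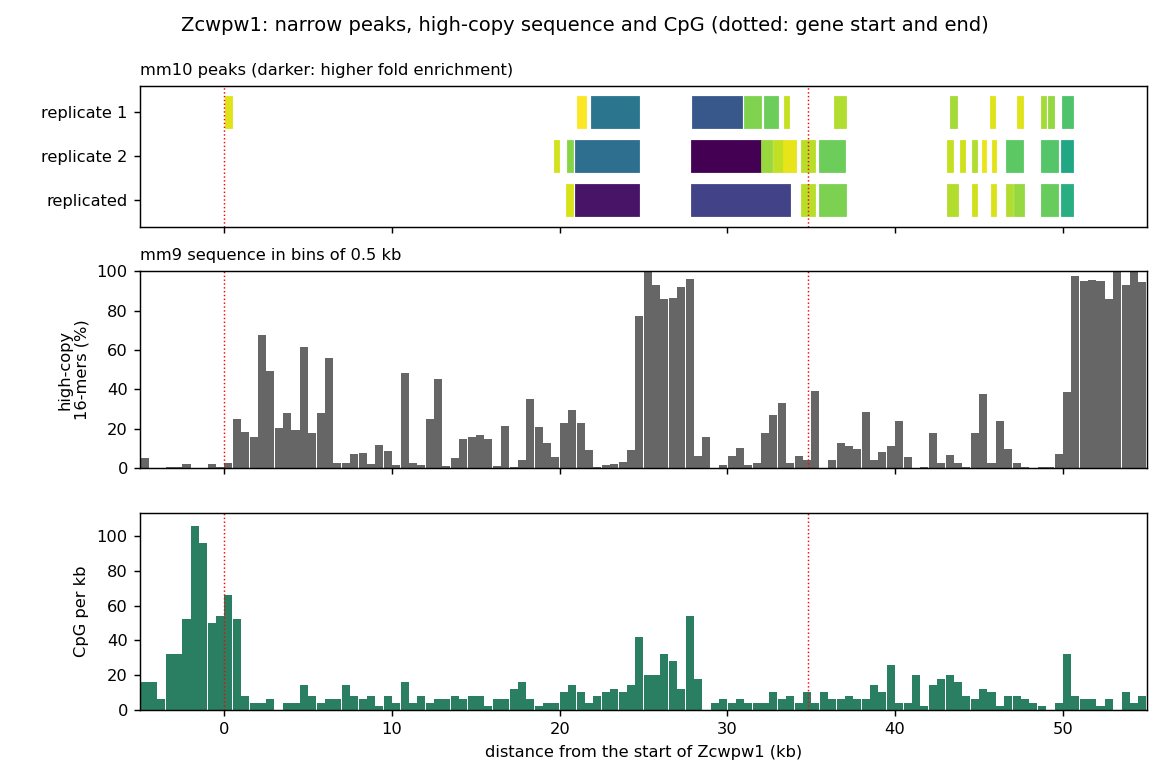
Narrow mm10 peaks of Zcwpw1 (top, darker for a higher fold enrichment), the share of mm9 bases that begin a high-copy 16-mer (middle, percent) and CpG per kb (bottom), by distance from the gene's start in kb. The strong peaks end at 24727 bp and begin again at 27895 bp, on either side of a stretch of high-copy sequence, and the CpG-rich start on the left has no replicated peak.

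Dpep3 had a region that reached to both sides of its start. It lies on chromosome 8 from 108497420 to 108503319 in mm9, on the minus strand. Its region had a fold enrichment of 3.94 in replicate 1 and 6.18 in replicate 2, a mean of 5.06 ± 1.59 (SD, n = 2). The shared bases ran from -1881 to 1918 bp relative to the start and touched 5 of its 10 exons, from exon 1 to exon 5. In mm10 a single replicated peak of 3183 bp contained the start, with a fold enrichment of 10.2 and its summit at -768 bp. The replicates had peaks of 9.85 and 12.8 over the start, a mean of 11.3 ± 2.10. Their summits lay at -577 and -737 bp, so both placed the highest point before the start. With 20 kb flanks there was 1 other replicated peak, of 3.60, inside the gene.

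Slc25a31 had the shortest region and the largest difference between replicates in mm9. It lies on chromosome 3 from 40512777 to 40529515, on the plus strand. Its fold enrichment was 2.63 in replicate 1 and 7.13 in replicate 2, a mean of 4.88 ± 3.18 (SD, n = 2). The region was 3200 bp wide in replicate 1 and 1600 bp in replicate 2. The ratio of replicate 2 to replicate 1 was 2.71, and 0.484% of all 1239 marked promoters had one as large, against a median of 1.31. In mm10 the strongest peak within 1 kb of the start had 6.50 in replicate 1 and 7.11 in replicate 2, a ratio of 1.09. The strongest narrow peak thus differed less between replicates than the wide region did, while the weaker peak at the start had 3.12 in replicate 1 and 5.74 in replicate 2.

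The narrow peaks of Slc25a31 lay on both sides of its start. In the replicated list, a peak with a fold enrichment of 4.50 ran from -430 to 161 bp relative to the start, and a stronger one of 7.35 from 214 to 1179 bp after it. In replicate 1 the first of these ended 116 bp before the start, at 3.12, while in replicate 2 it contained the start, at 5.74. Exon 1 was the single exon touched by shared mm9 bases, which covered 7.31% of the body. This region had 41.3 CpG per kb and 3.63% high-copy sequence, the lowest high-copy share among the regions at the 4 genes.

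Brdt had the weakest region at a start in mm9 and a strong narrow peak in mm10. It lies on chromosome 5 from 107760178 to 107816077 in mm9, on the plus strand. Its fold enrichment was 2.36 in replicate 1 and 3.81 in replicate 2, a mean of 3.08 ± 1.03 (SD, n = 2). The region was 7600 bp wide in replicate 1 and 5800 bp in replicate 2, most of it upstream: the shared bases ran from -4177 to 1622 bp relative to the start. They covered 2.90% of the body and touched exon 1 of 19 only. The start of the short transcript Brdt-002 was unmarked, with the nearest region at least 25256 bp away.

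In mm10 the replicated peak over the Brdt start had a fold enrichment of 10.1 and ran from -1642 to 953 bp relative to it, with its summit at -1373 bp. In replicate 1 this stretch was broken into smaller peaks, of which the strongest had 5.46, and one of 3.90 contained the start. In replicate 2 the strongest had 13.4 and ended 52 bp before the start, and a weaker one of 3.47 began 61 bp after it. The mean of the strongest peak within 1 kb was 9.43 ± 5.61, and the ratio of replicate 2 to replicate 1 was 2.45, against 1.62 in mm9. The mark at Brdt was therefore highest upstream of the start in both replicates. A separate pair of replicated peaks, between -19138 and -17349 bp, had fold enrichments of 4.35 and 8.10. The mm9 region there was 57.8% high-copy sequence, against 27.4% in the region at the start and 17.4% over the whole locus.

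**Figure D2:**
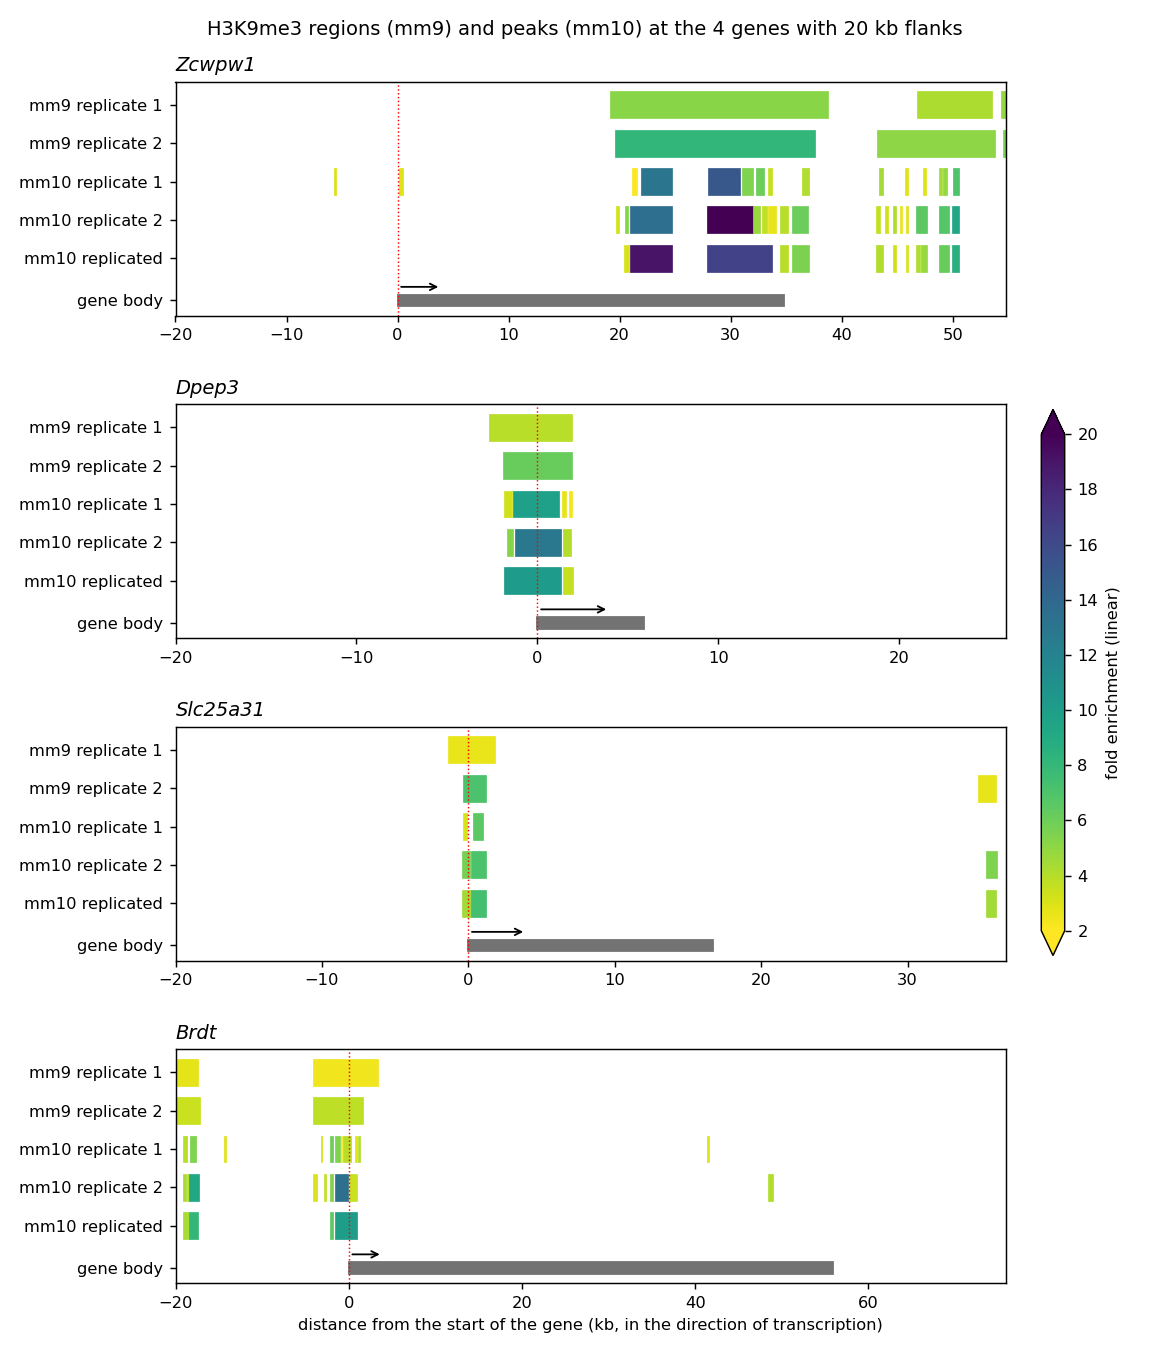
Regions of the mm9 lists and peaks of the mm10 lists at Zcwpw1, Dpep3, Slc25a31 and Brdt with 20 kb flanks, by distance from the gene's start in kb along the direction of transcription. Colour gives the fold enrichment, grey bars the gene bodies and the dotted line the start. The mark crosses the start of Dpep3, Slc25a31 and Brdt and lies in the downstream part of Zcwpw1.

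Among all 1239 protein-coding genes with a marked start in mm9, whose median mean fold enrichment was 3.77, Zcwpw1 stood above 84.9%, Dpep3 above 72.1%, Slc25a31 above 70.2% and Brdt above 31.8%. The neighbouring means of Dpep3 and Slc25a31 differed by less than the SD of either. Replicate 2 was higher at all 4 genes, and at 89.7% of all marked promoters. The other protein-coding genes with the nearest pair of replicate values, as a distance of log2 values over 2 samples, were Gbgt1 for Zcwpw1 (0.00928), 5430421N21Rik for Dpep3 (0.0204), Zfp934 for Slc25a31 (0.107) and Serpinb9g for Brdt (0.0180).

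**Figure D3:**
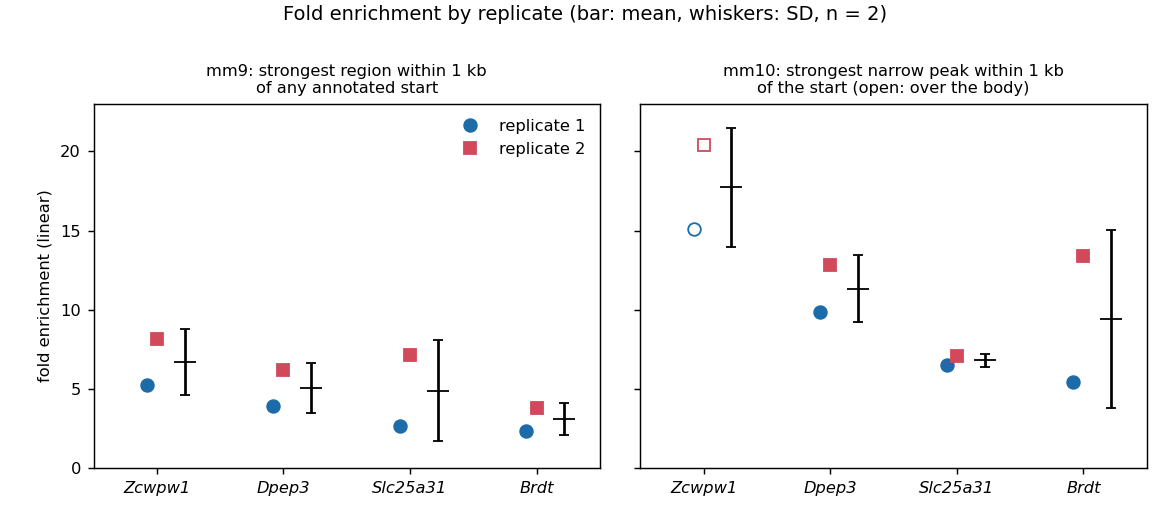
Fold enrichment of each gene in replicate 1 (circles) and replicate 2 (squares), with the mean and SD (n = 2), from the mm9 regions within 1 kb of any start (left) and the strongest mm10 peak within 1 kb of the start (right, with Zcwpw1 shown open because its peak lay over the body). Slc25a31 had 2.63 and 7.13 in mm9 but 6.50 and 7.11 in mm10, and Brdt spread more in mm10, with 5.46 and 13.4.

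Over RefSeq gene bodies, replicated mm10 peaks covered 29.3% of Zcwpw1, 32.3% of Dpep3, 6.55% of Slc25a31 and 1.84% of Brdt. Of 21883 protein-coding genes, 30.7% had a replicated peak over the body, and the median coverage was 0%. Zcwpw1 had 23.9% covered in replicate 1 and 30.1% in replicate 2, Dpep3 27.5% and 30.2%, Slc25a31 3.98% and 6.47%, and Brdt 1.81% and 2.53%. With 20 kb flanks there were 12 replicated peaks at Zcwpw1, 2 at Dpep3, 3 at Slc25a31 and 4 at Brdt, and 65.9% of protein-coding genes had at least 1 in such a span. At Zcwpw1 none of the 12 was upstream, 4 lay on the body and 8 downstream.

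Neighbouring genes had a replicated mm10 peak within 1 kb of a start at 2 of the loci. Of all protein-coding genes 5.89% had one, and the few neighbours are only described. Pilra, which encodes an inhibitory receptor of myeloid cells and overlaps the end of Zcwpw1, had a replicated peak of 6.15 within 1 kb of its start, with 4.94 in replicate 1 and 6.83 in replicate 2. Its body was covered over 30.2%. Hspa4l, a heat shock protein gene of the testis that lies downstream of Slc25a31, had a replicated peak of 4.50 within 1 kb of its start, with 5.47 in replicate 2 and no peak there in replicate 1. Intu, upstream of Slc25a31, had 2.83 in replicate 2 and none in replicate 1 or the replicated list. Ppp1r35 near Zcwpw1, Slc12a4 near Dpep3, and Ephx4 and Gm17202 near Brdt had no peak within 1 kb of a start in any mm10 list. Starts of Tsc22d4, Mepce, Dpep2, Gm8152, n-R5s173 and LOC115485637 were not analysed here in mm10, and replicated peaks covered 0% of their bodies.

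The relatives of the 4 genes that were examined had no marked start. Neither Dpep1 nor Dpep2, neither Slc25a4 nor Slc25a5, the carriers of other tissues, and neither Brd2 nor Brd3, which encode widely expressed BET proteins, had a region of either replicate within 1 kb of a start in mm9. The same held for Zcwpw2, Morc1, Morc2a, Morc3, Morc4 and Kdm1b, whose proteins share the CW domain with ZCWPW1. That is 0 of 12 genes, which is near the 5.54% of all protein-coding genes, so nothing is read from it. Replicated mm10 peaks did lie inside some bodies, covering 14.4% of Brd3, 6.82% of Zcwpw2 and 6.35% of Morc3.

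Other germ cell genes were marked in mm9 too. Of 78 genes in 4 lists, 77 matched the annotation and 11, or 14.3%, had a shared region at a start, against 5.54% of protein-coding genes. Without the 4 members it was 7 of 73, or 9.59%. The lists were chosen with earlier results of these data known, so these shares only describe them. The difference rested on regions under a fold enrichment of 4: with that minimum in both replicates the shares were 1.30% of the germ cell genes and 1.82% of protein-coding genes. At 5 kb from a start they were 18.2% and 15.04%. Acrv1, an acrosomal protein gene, had 3.50 and 5.13, a mean of 4.32 ± 1.15 (SD, n = 2). Among genes of the piRNA pathway, which silences transposons, Tdrd7 had 3.35 ± 0.44, Tdrkh 3.25 ± 0.78, Fkbp6 3.07 ± 0.40 and Mov10l1 1.87 ± 0.39. Of the synaptonemal complex genes, which pair chromosomes in meiosis, Syce1 had 2.52 ± 0.67 and Sycp1 2.34 ± 0.09. By mean, Acrv1, Tdrd7 and Tdrkh thus stood above Brdt and Fkbp6 just below it, so the 4 members are not the 4 strongest of these lists. The means of Tdrd7, Tdrkh and Fkbp6 differed from that of Brdt, 3.08 ± 1.03, by less than its SD. Brdt was below these genes in replicate 1, at 2.36, and above them in replicate 2, at 3.81. Acrv1 was above Brdt in both replicates.

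With narrow mm10 peaks more genes of these lists were marked. Of the 66 genes of the 4 lists with a RefSeq promoter window, 18 or 27.3% had a replicated peak in it, against 2.30% of 17491 protein-coding genes. Without the members it was 15 of 62, or 24.2%. The other list genes too were chosen with earlier results of these data known, so these shares only describe the lists. Within 1 kb of a RefSeq start it was 24 of 66, or 36.4%, against 5.89% of protein-coding genes. Dpep3, Brdt and Slc25a31 were among the 18 and Zcwpw1 was not. A peak of the replicated list did not always have a peak of both replicates in the window. Sycp1, Taf7l, Tdrkh and Figla had none there in replicate 1, and Tuba3a had none in replicate 2. By list there were 5 of 21 genes of meiotic chromosomes and recombination, 3 of 16 of the piRNA pathway and germ granules, 6 of 12 germ cell regulators and 4 of 17 spermatid and sperm genes. In the replicated list Acrv1 had the highest fold enrichment at 10.7, before Dpep3 at 10.2 and Brdt at 10.1. The order differed by replicate: in replicate 1 Dpep3 had 9.85, Acrv1 8.13, Fkbp6 7.02 and Brdt 3.90, and in replicate 2 Acrv1 had 13.9, Brdt 13.4 and Dpep3 12.8. All are values of whole peaks that touch the window. The replicated peaks of Dpep3 and Brdt had their summits before it, at -768 and -1373 bp. In replicate 1 a stronger Brdt peak, of 5.46, ended at -984 bp and so was not counted. Slc25a31, at 4.50 in the replicated list, stood between Sycp1 at 4.75 and Tex101 at 4.20. These names beyond the members and Acrv1, Fkbp6, Syce1, Mov10l1, Sycp1 and Tdrkh were chosen after their values were seen.

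**Figure D4:**
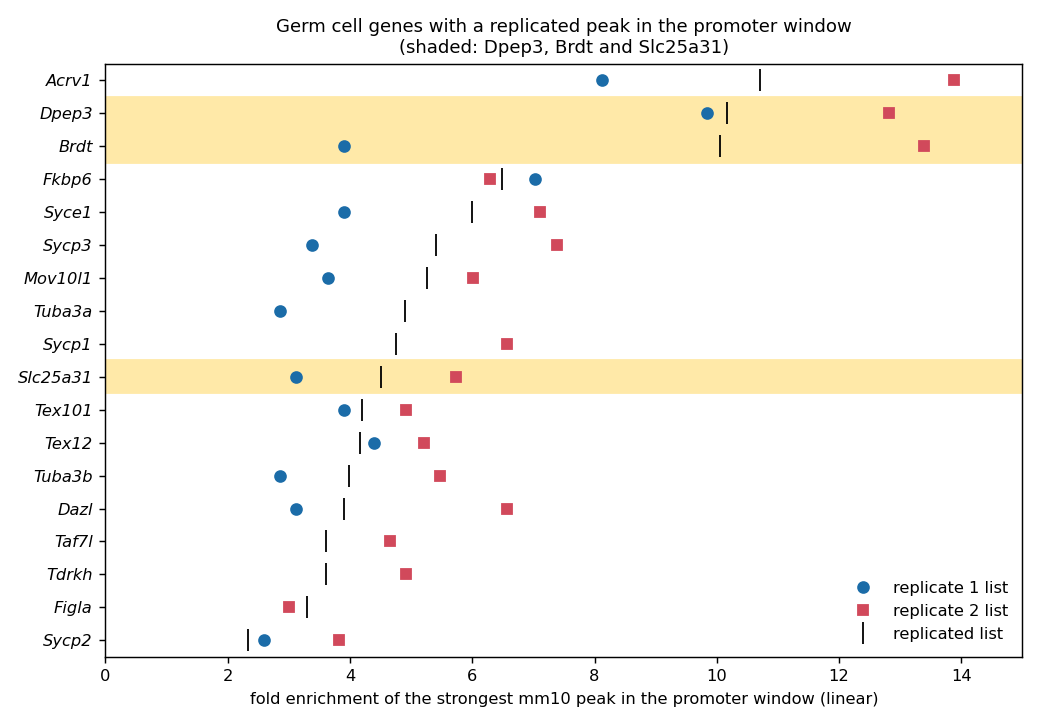
Fold enrichment of the strongest mm10 peak in the promoter window of the 18 germ cell genes with a replicated peak there, in replicate 1 (circles), replicate 2 (squares) and the replicated list (black ticks). Dpep3, Brdt and Slc25a31 are shaded. A gene without a symbol for a replicate had no peak of that replicate in the window. Values are those of whole peaks that touch the window, and the replicated peaks of Dpep3 and Brdt had their summits before it. In the replicated list Dpep3 and Brdt stand beside Acrv1 at the top, with 10.2, 10.1 and 10.7. Brdt has the widest gap between replicates of these 3, but its strongest replicate 1 peak near the start lay outside the window.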

How the data were processed

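H3K9me3 ChIP-seq of 2 replicates of E14TG2a.4 was deposited as peak lists. Each peak has a fold enrichment, a linear ratio that the authors deposited without naming its denominator. The authors deposited −log10 q in mm10 and linear q-values in mm9. Per the deposited file lists, mm10 lists are narrowPeak and mm9 lists broadPeak, and the replicated list was derived from the pooled list and those of both samples. The series' own mm9 list is called pooled here, though no source states that. No source used here gives the caller or aligner.

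A promoter was 1 kb either side of a GENCODE M1 transcript start in mm9, marked where bases of both replicates overlapped it by at least 1 bp, with the strongest region of each replicate as its value. In mm10, RefSeq gene bodies and promoter windows of GRCm38.p6 were used. The window table is incomplete. High-copy 16-mers were counted on both strands of mm9. Counting was tested on simulated regions. Python 3.11.15, pandas 2.3.3 and numpy 2.4.6 were used. No test was made, since there is 1 group and the members were chosen for these values. Members and lists were chosen with earlier results of these data known. One item is not reported here. The text names the 4 members, their relatives and flanking genes, list genes with a shared region, and the nearest gene per member. It also names genes from lists of stem cell and fibroblast genes. Other names were chosen after their values were seen.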

Additional observations from a re-analysis of the deposited data

How the results depend on the processing

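No paired analysis was possible because there is 1 group and no comparison between groups. The window alternatives gave the 4 genes the same promoter values because each region contains the start, so they test little. Leaving out a replicate gave 5.23 to 8.16 for Zcwpw1, 3.94 to 6.18 for Dpep3, 2.63 to 7.13 for Slc25a31 and 2.36 to 3.81 for Brdt. Zcwpw1 had no value at the gene's 5′ end, and Dpep3, Slc25a31 and Brdt had none where each region had to reach 4. Read depth is unknown, which limits all values.

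The 1239 marked protein-coding genes became 734 where a region had to contain the start, 2030 at 2.5 kb, 3365 at 5 kb, 1895 with the pooled list and 406 with fold enrichments of 4 or more. The 11 germ cell genes became 17 with the pooled list and 1 with that fold minimum, which is 22.1% against 8.47% of protein-coding genes, and 1.30% against 1.82%. With the pooled list Brdt had 3.43% of its body covered and 12 peaks in its span. Leaving out a replicate gave body coverage of 23.9% to 30.1% for Zcwpw1, 27.5% to 30.2% for Dpep3, 3.98% to 6.47% for Slc25a31 and 1.81% to 2.53% for Brdt, with 3 to 4 peaks at Dpep3 and 9 to 11 at Brdt. With the fold minimum, Dpep3 had 22.4% covered and 1 peak. Merging within 1 kb left 4 peaks at Zcwpw1, 1 at Dpep3 and 2 at Brdt. Flanks of 10 kb gave 7 peaks at Zcwpw1 and 2 at Brdt, and flanks of 50 kb gave 5 at Slc25a31. The count of germ cell genes with a peak in a promoter window, added after seeing the data, ranged from 12 to 24 of 66 over its alternatives. The 12, with the fold minimum, are 18.2%, against 1.58% of protein-coding genes. The 24, within 1 kb of a start, are 36.4%, against 5.89%. The causes were not tested.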

Other observations

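Of the list named germ cell regulators, 6 of 12 genes had a replicated mm10 peak in the promoter window, against 2.30% of protein-coding genes. This share, 50%, was the highest of the 4 lists, whose others had 23.8%, 18.8% and 23.5%. In mm9 0 of 13 had a shared region at a start, which is near the 5.54% of protein-coding genes. The 6 do not all do what the list's name says. They were Dazl, an RNA-binding protein gene of early germ cells, at a fold enrichment of 3.90, Tex101, which encodes a germ cell surface protein, at 4.20, Figla, a transcription factor gene of oocytes, at 3.30, Taf7l at 3.60, and the testis tubulin genes Tuba3a at 4.90 and Tuba3b at 3.98. These names were chosen after their values were seen. Tuba3a and Tuba3b are close copies, so their peaks may share reads. In the window, Taf7l and Figla had no peak in replicate 1, and Tuba3a had none in replicate 2. In mm9 Dazl had a region in replicate 2 alone, at 4.37, and so had Tuba3b, at 2.78.

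CACGTG was in 24 of 84 promoter windows of the germ cell lists, 28.6%, against 7.84% of windows of protein-coding genes. Of those 24 windows 9 had a replicated peak, 37.5%, against 10 of 60 germ cell windows without the letters, 16.7%. Slc25a31 and Brdt are among the 9 and Dpep3 among the 10, and they were picked for their marked promoters. Without the 4 members it was 7 of 22 windows, 31.8%, against 9 of 57, 15.8%. Over all protein-coding genes the shares were 1.92% of 1666 windows with CACGTG and 2.04% of 19596 without it. These shares are descriptions of 1 group of 2 replicates, and windows of 1 gene can overlap. The lists were chosen with earlier results of these data known.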
